A study of Oryza sativa with 20 samples.

Results

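Shoots of rice seedlings kept for 6 hours at 10°C were compared with shoots kept for 6 hours at 29°C on a spotted cDNA microarray, and every result below is about that one time of chilling. The 6 hour comparison was chosen by the titles of the columns and takes 4 of the 20 columns of the series, which are the 2 spot sets of each of 2 slides, with 1 slide for each biological replicate. The other 16 columns hold the same comparison at 0.5, 2, 12 and 24 hours. The chilled group was S3-stage seedlings of the japonica cultivar CT6748-8-CA-17, which tolerates chilling, moved to 10°C, and the control group was seedlings of the same cultivar and stage kept at 29°C, with control RNA of its own at each time. No other genotype, mutant or treatment was part of these arrays. By the labels the chilled cDNA carried Cy3 and the control cDNA carried Cy5 throughout, although the ratios of replicate 2 at 2 hours leave its direction unsettled. No dye swap is described, and what the dye and what chilling added to a ratio cannot be told apart. Each value is a log2 ratio of the chilled over the control channel, and 1 on this scale is a change of 2-fold.

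Rice comes from warm climates, and its seedlings are injured by temperatures that do not freeze the tissue. Plants answer a drop in temperature within hours through calcium and mitogen-activated protein kinase signals, reactive oxygen, hormones such as jasmonate and abscisic acid, and transcription factors that act on further genes. In the jasmonate pathway the JAZ proteins hold back transcription factors, NINJA links JAZ proteins to a corepressor, and COI1 takes part in perceiving the hormone and marks JAZ proteins for destruction. In the gibberellin pathway GID1 is the soluble receptor that, once it has bound the hormone, allows the growth-repressing DELLA proteins to be degraded.

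The paper describes an array of ESTs from a library of cold-stressed rice seedlings and a library of drought-stressed rice plants. It gives fewer unique features than the deposited values, which covered 6080 features. Of these, 6022 had a value in both replicates at 6 hours and 58 did not. The median log2 ratio was -0.01 in replicate 1 and 0.03 in replicate 2, with 49.1% and 51.6% of the features above 0. The duplicate spots of a slide correlated with r = 0.70 in replicate 1 and 0.45 in replicate 2, and the replicate means correlated with r = 0.34 across features, which are not independent of each other. The second spot set of replicate 2 has a title and treatment protocols for 6 hours and a source name that gives 0.5 hour for its chilled channel. It had the most missing values, 187 against 62 to 83 in the other spot sets, and correlated with r = 0.29 and 0.26 with the spots of replicate 1 at 6 hours and with r = -0.08, -0.05, 0.27 and 0.32 with the 4 columns of 0.5 hours. It was kept at 6 hours, and each call is also given without it. The table holds ratios and no intensities, so the levels of shoot marker genes could not be read. With 2 biological replicates the precision is set by the few arrays. Each p-value below tests a mean, or a difference of means, against 0, with a spread estimated from the replicates of all times.

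At 6 hours, 12 features rose in the chilled shoots and 0 fell among the 5926 tested with limma at a Benjamini-Hochberg adjusted p of 0.05, which is 0.202% called higher and 0% called lower. At an unadjusted p of 0.05 the same test counted 546 features higher and 52 lower. The called features included NINJA1 of the jasmonate pathway, the gibberellin receptor gene gid1 and the RNA-binding protein gene RBP-208, each between 3.09-fold and 4.61-fold higher in the chilled shoots. The other 9 were 8 genes known here only by a locus number and 1 feature with no gene in the annotation used. In a tissue sample like this one, more RNA per cell and more cells of a type that holds the RNA cannot be told apart.

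NINJA1 had log2 ratios of 1.74 and 1.81 in replicate 1 and 2.13 and 3.14 in replicate 2, a mean of 2.20 ± 0.61 (SD, n = 2) or 4.61-fold, with a standard error of 0.29 and an adjusted p of 0.0116 by limma. All 4 spots lay above 1.7, and replicate 2 was the higher. The mean was 1.95 without the column of conflicting source name, and the call was kept (limma adjusted p = 0.0118). The gibberellin receptor gene gid1 had log2 ratios of 1.23 and 1.71 in replicate 1 and 2.09 and 3.0 in replicate 2, a mean of 2.01 ± 0.76 (SD, n = 2) or 4.02-fold (limma adjusted p = 0.0473). Its highest spot was the one of conflicting source name, and without that column its mean was 1.78 and its call was lost (limma adjusted p = 0.0675). RBP-208 had log2 ratios of 1.35 and 1.61 in replicate 1 and 1.66 and 1.91 in replicate 2, which lie close together, and a mean of 1.63 ± 0.22 (SD, n = 2), 3.09-fold (limma adjusted p = 0.0473). Without the column of conflicting source name its mean was 1.57 and its call was lost as well (limma adjusted p = 0.0675). A second feature of the same gene gave -0.01, 0.39, 0.51 and 0.60 with a mean of 0.37, so the features of this gene differed in size.

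Among the genes with only a locus number, LOC4349081 and LOC4334619 had the most even spots. LOC4349081 had log2 ratios of 2.17 and 2.08 in replicate 1 and 2.43 and 2.80 in replicate 2, a mean of 2.37 ± 0.35 (SD, n = 2, limma adjusted p = 0.0116), and LOC4334619 had 2.01 and 2.16 in replicate 1 and 2.21 and 2.58 in replicate 2, a mean of 2.24 ± 0.22 (SD, n = 2, limma adjusted p = 0.0128). In both, the lowest of the spots was still above 4-fold. The highest means belonged to LOC4332013, with log2 ratios of 1.83 and 1.74 in replicate 1 and 4.02 in the only measured spot of replicate 2 and a mean of 2.90 (limma adjusted p = 0.0137), and LOC4342672, with 2.36 and 1.38 in replicate 1 and 3.19 and 4.46 in replicate 2 and a mean of 2.85 (limma adjusted p = 0.0473). In these 2 genes replicate 2 was well above replicate 1 and the SD was 1.58 and 1.39. A second feature of LOC4342672 had a mean of 0.30. LOC4350996 had 2.39 and 1.79 in replicate 1 and 1.71 and 5.16 in replicate 2, so that 1 spot stood apart, the one of conflicting source name, and its mean was 2.76. The remaining called features were LOC4335933 (mean 2.55), LOC4347142 (2.38), LOC4342799 (1.88) and the feature without a gene (1.58), with every spot above 0. Without the column of conflicting source name LOC4349081, LOC4334619 and LOC4332013 were still called, each with a limma adjusted p of 0.0118. The other 6 lost their calls. Their means without it were 2.53 for LOC4342672, 2.36 for LOC4335933, 2.07 for LOC4347142, 1.69 for LOC4342799, 1.90 for LOC4350996 and 1.26 for the feature without a gene, with limma adjusted p from 0.0675 to 0.143. The annotation used gives no function for any of these genes.

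**Figure D1:**
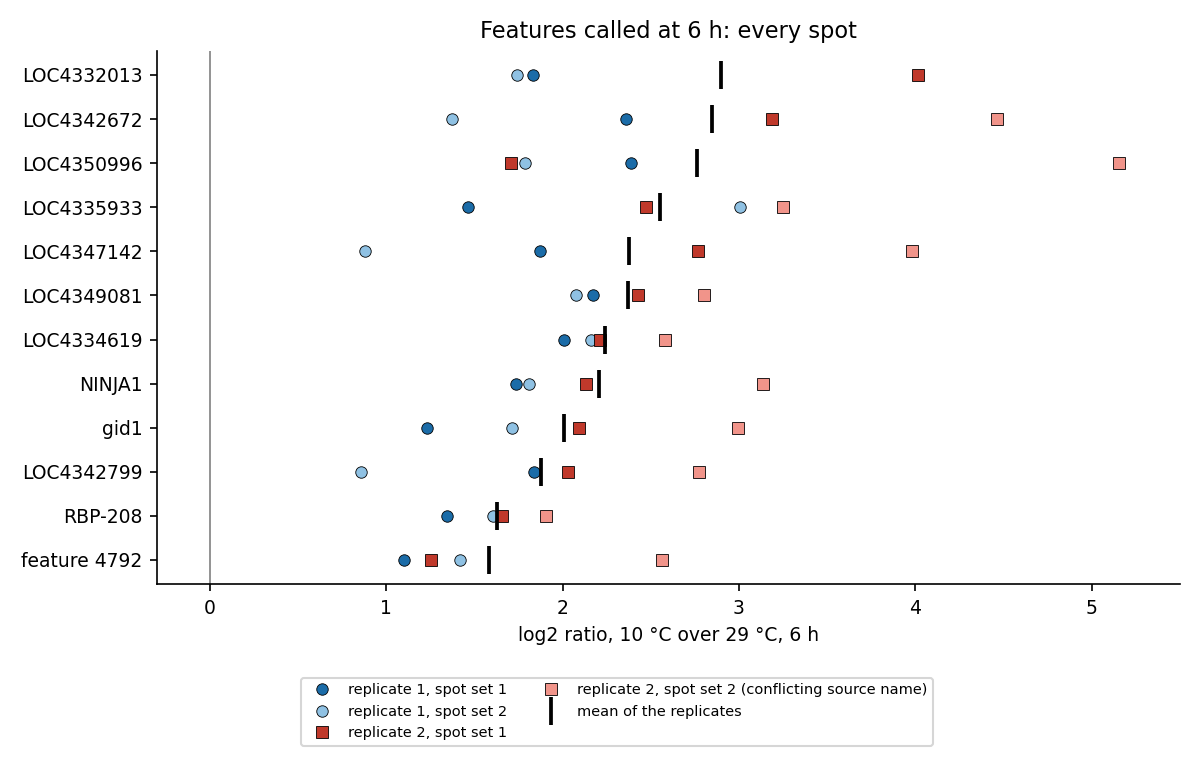
Log2 ratios (10°C over 29°C) at 6 hours of the 12 called features, 1 row each, with the 2 spots of replicate 1 as circles, the 2 spots of replicate 2 as squares and the mean of the replicates as a black bar. Every spot lies above 0, and the highest spot of LOC4350996, 5.16, belongs to the column of conflicting source name.

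The number of called features rested on replicate 2 and on how the spread was estimated. With replicate 1 of 6 hours alone, 0 features were called, and with replicate 2 alone 25 were, 17 higher and 8 lower. The spread came from all times, and replicate 2 at 2 hours correlated with r = -0.43 with replicate 1 of that time as deposited, so its direction is not settled. It entered with its sign turned, and with the sign as deposited 0 features were called at 6 hours, with a lowest adjusted p of 0.818. Without the column of conflicting source name 5 features were called, 4 of them among the 12, which were NINJA1, LOC4349081, LOC4334619 and LOC4332013.

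By the fold rule of the methods, a mean at or above 1.8-fold, 380 of 6022 features were higher in the chilled shoots (6.31%) and 48 were lower by as much (0.797%). Of the 380, 139 reached 1.8-fold in each replicate, 203 did so in replicate 2 alone and 38 in replicate 1 alone. All 4 spots passed 1.8-fold in 50 features that were higher and in 1 that was lower. At the other times 691, 1019, 571 and 764 features were at or above 1.8-fold higher at 0.5, 2, 12 and 24 hours, where the count at 2 hours includes the replicate of turned sign. The paper's list of upregulated features by this rule, over all its times together, is much shorter than the count of higher features at any time here. The counts given here therefore do not reproduce that selection, and the cause of the difference was not tested. The ratios were not centred, and the median over all features was 0.02 at 6 hours, against 0.13, 0.31, 0.11 and 0.14 at 0.5, 2, 12 and 24 hours. With the median of each replicate set to 0 the counts higher were 440, 394, 367, 449 and 572 in the order of time and the counts lower were 210, 158, 49, 171 and 165.

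**Figure D2:**
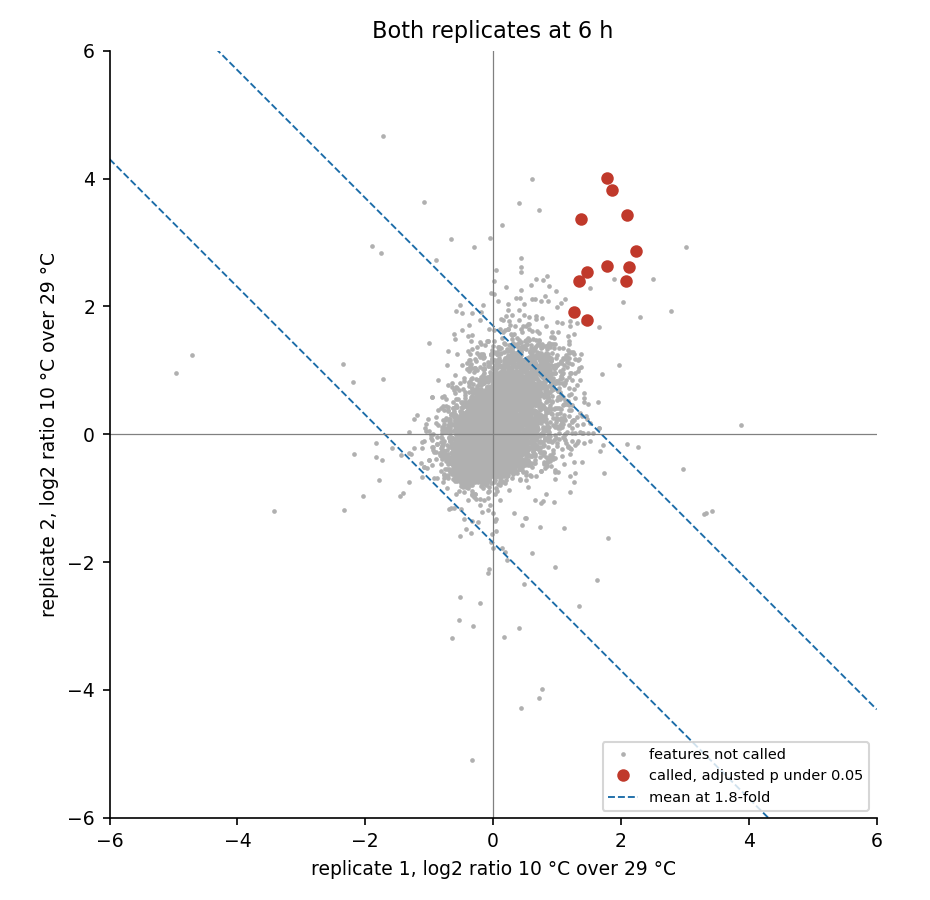
Log2 ratio (10°C over 29°C) of replicate 2 against replicate 1 at 6 hours for 6014 features, with the 12 called features in red and dashed lines where the mean of the replicates is 1.8-fold. The called features lie in the upper right, and 8 further features lie outside the axis range of -6 to 6.

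Of the lower features, 7 were at or past 1.8-fold in each replicate, and 1 of them, LOC4344071, had a value in all 4 spots. Its log2 ratios were -1.51 and -1.41 in replicate 1 and -0.91 and -1.02 in replicate 2, a mean of -1.21 ± 0.35 (SD, n = 2, limma adjusted p = 0.166). The other 6 had no gene in the annotation used and lacked at least 1 spot, and none of them was tested. LOC4344071 and these features were singled out after their values had been seen. In 14 of the 48 lower features a spot lay below -5, and in 9 of them that spot was in the column of conflicting source name.

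The named genes with the highest ratios outside the called set were read from features with one sign in all 4 spots, and none of those tested passed. RAD23, whose protein carries ubiquitin-tagged proteins to the proteasome and takes part in DNA repair, had log2 ratios of 4.21 and 1.82 in replicate 1 and 2.17 and 3.68 in replicate 2 and a mean of 2.97, and it was not tested because a replicate at another time had no value. OsSPS3F encodes a sucrose phosphate synthase, the enzyme that makes the precursor of sucrose. Its log2 ratios were 2.07 and 2.00 in replicate 1 and 2.29 and 1.84 in replicate 2, a mean of 2.05 ± 0.022 (SD, n = 2, limma adjusted p = 0.227), with replicates closer to each other than in any called feature. At the other times its means reached 4.52 at 0.5 h and 2.93 at 24 h, against 0.21 at 12 h. The spread in the test came from all times. The OsSPS3F replicates were -0.95 and 1.37 at 12 h and 1.84 and 4.02 at 24 h.

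Of the jasmonate genes, JAZ6 followed NINJA1, with log2 ratios of 0.76 and 0.93 in replicate 1 and 2.44 and 2.52 in replicate 2 and a mean of 1.66 ± 1.16 (SD, n = 2, limma adjusted p = 0.285). Both spots of replicate 2 lay above both spots of replicate 1. The jasmonate list held 9 features, of which 1 was called higher, 0 were called lower and 3 were at or above 1.8-fold, beside 0.202% called higher and 6.31% at or above 1.8-fold over all features. Its median was 0.59, beside 0.02 over all 6022 features. The counts of every list below are to be set beside the same shares over all features, and beside 0.797% lower by 1.8-fold. For counts above 0, the share over all features was 51.5%. COI1B, a member of the receptor family, had a mean of 0.93 ± 0.49 (SD, n = 2), and JAZ1 had the lowest value of the list, -0.39. In the gibberellin list of 4 features gid1 was the only one above 0 and the only call, and the median was -0.31. KSL7, which makes a diterpene of the rice defence compounds, had -0.40 and ks1, an ent-kaurene synthase gene of gibberellin synthesis, had -0.38. KSL7 entered by its name, so this list and its median are not of gibberellin genes alone. Of 16 auxin features 0 were called and 2 were at or above 1.8-fold, with a median of 0.29. They were IAA3 at 0.98 ± 0.17 and IAA17 at 0.90 ± 0.022 (SD, n = 2 each), both of the Aux/IAA repressor family. Both are also on the study's own list, which was chosen on these samples. The 16 features of abscisic acid and ethylene had a median of -0.06 and none reached 1.8-fold, with a range of -0.56 for OsPP2C45 to 0.84 for OsPP2C28, both protein phosphatase genes.

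In the list of kinase genes, which also holds calcium sensors, no feature passed the test. MPK16, a mitogen-activated protein kinase gene, had log2 ratios of 1.14 and 1.39 in replicate 1 and 1.13 and 1.40 in replicate 2, a mean of 1.26 ± 0.00071 (SD, n = 2, limma adjusted p = 0.156). CBL1, a calcium sensor of the calcineurin B-like family, had a mean of 0.92 ± 0.38 (SD, n = 2). MEK1, a mitogen-activated protein kinase kinase gene, had the lowest mean of the named genes, -1.91, and this value rested on 1 spot. Its log2 ratios were -0.54 and -0.73 in replicate 1 and -0.75 and -5.62 in replicate 2, and the mean was -0.69 without the column of conflicting source name. CEBIP, the gene of a cell surface protein that binds chitin, likewise had 1 low spot, with -0.53 and -0.53 in replicate 1 and -0.31 and -5.49 in replicate 2, a mean of -1.72 and -0.42 without that column. The kinase list held 35 features, of which 34 were tested and 0 were called, 4 were at or above 1.8-fold, 1 was lower by as much and the median was 0.13. Over all features 6.31% were at or above 1.8-fold and 0.797% were lower by as much.

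The other named genes at the low end had means between -0.79 and -0.55 and one sign in all 4 spots, and none passed the test, with adjusted p from 0.357 to 0.716. CAD6, of the cinnamyl alcohol dehydrogenase family that makes lignin precursors, had -0.96 and -1.19 in replicate 1 and -0.53 and -0.49 in replicate 2, a mean of -0.79 ± 0.40 (SD, n = 2), or 1.73-fold lower. EXPA2, an expansin gene of cell wall loosening, had -0.81 and -0.64 in replicate 1 and -0.82 and -0.88 in replicate 2 and a mean of -0.79 ± 0.088 (SD, n = 2), with a narrow spread of the spots. RPA70B, a large subunit of the replication protein A that binds single-stranded DNA, had a mean of -0.70 ± 0.088, and PARP2-A, a poly(ADP-ribose) polymerase gene, had -0.63 ± 0.077. SDH1, of the flavoprotein subunit of succinate dehydrogenase, had -0.65 ± 0.12 and SAP6, a stress-associated zinc finger gene, had -0.56 ± 0.088 (SD, n = 2 each). S1FA, OsPP2C45, OsIF1-1, OSK3, GluC, MADS6 and NSHB2 were also among the 15 lowest. NSHB2, a non-symbiotic haemoglobin gene, had a mean of -0.60 on one feature and 0.49 on another.

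The 4 transcription factor genes that the study followed were all above 0 in all 4 spots and none passed the test. ROS-bZIP1 had log2 ratios of 0.82 and 0.68 in replicate 1 and 1.57 and 1.13 in replicate 2, a mean of 1.05 ± 0.42 (SD, n = 2) or 2.07-fold (limma adjusted p = 0.285). OsMyb4 had 0.30 and 0.16 in replicate 1 and 2.15 and 1.92 in replicate 2, a mean of 1.13 ± 1.28 (SD, n = 2, limma adjusted p = 0.357), so the replicates were far apart. The bHLH gene had 0.66 and 0.39 in replicate 1 and 0.36 and 0.32 in replicate 2, a mean of 0.43 ± 0.13 (SD, n = 2). The 2 features of EREBP1, an ethylene-responsive element binding protein gene, had means of 0.47 ± 0.27 and 0.63 ± 0.062 (SD, n = 2 each). The means of ROS-bZIP1 were 0.02 at 0.5 h, 0.53 in replicate 1 at 2 h, 1.05 at 6 h, 0.18 at 12 h and -0.32 at 24 h. Those of OsMyb4 were -0.14 at 0.5 h, 0.19 in replicate 1 at 2 h, 1.13 at 6 h, 0.15 at 12 h and -0.53 at 24 h. Both had their highest mean at 6 hours, while bHLH was higher at 12 h with a mean of 1.31, and the first feature of EREBP1 was higher at 12 and 24 h with 0.94 and 1.16. The paper's qPCR in this cultivar has another baseline and cannot be set directly against these array means. It was normalized to actin with the value at 0 hours subtracted, whereas each array ratio has a control of the same time. The qPCR gave a ROS-bZIP1 peak within the initial 2 hours and a second at 24 hours, and OsMyb4 highest at 24 hours. From its arrays the paper places the induction of ROS-bZIP1 in the initial 2 hours and that of OsMyb4 near 6 hours. Here the ROS-bZIP1 means of 0.02 at 0.5 h and 0.53 in replicate 1 at 2 h lay below 1.8-fold. The OsMyb4 mean of 1.13 at 6 h lay above it. Over the array the list of transcription factor symbols held 26 features with a median of -0.07, 0 called, 2 at or above 1.8-fold and 11 above 0. The second of these, MYBAS2, had a mean of 1.01 ± 0.34 (SD, n = 2).

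**Figure D3:**
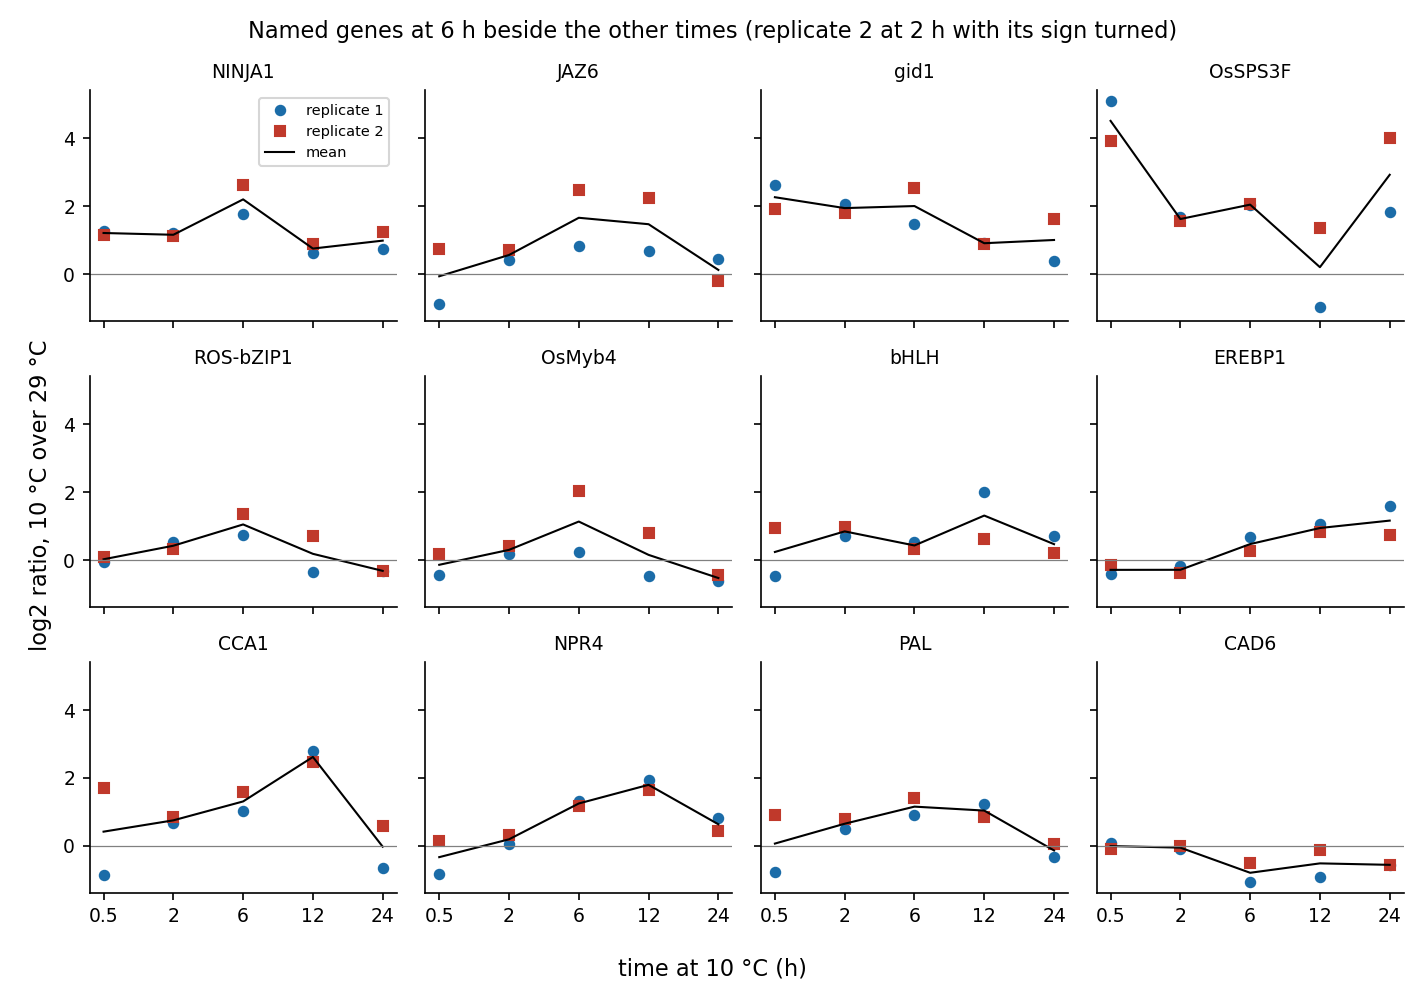
Log2 ratios (10°C over 29°C) of 12 named genes by time at 10°C in hours, with replicate 1 as circles, replicate 2 as squares and their mean as a line; replicate 2 at 2 hours is drawn with its sign turned. NINJA1, JAZ6, ROS-bZIP1, OsMyb4 and PAL have their highest mean at 6 hours, CCA1 and NPR4 at 12 hours, and CAD6 its lowest at 6 hours.

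Clock and defence genes were represented by few features. CCA1, a morning factor of the circadian clock, had log2 ratios of 0.95 and 1.09 in replicate 1 and 1.55 and 1.65 in replicate 2 and a mean of 1.31 ± 0.41 (SD, n = 2, limma adjusted p = 0.358), and its second feature had 0.57 ± 0.087. PRR95, a pseudo-response regulator of the clock, had 0.92 ± 0.12 (SD, n = 2). The clock and light list held 6 features with 0 called, 2 at or above 1.8-fold and a median of 0.19, or -0.18 with the features of each gene averaged first, and its lowest member was the phytochrome gene PHYA at -0.31. Over all features 6.31% were at or above 1.8-fold. The defence list held 12 features with 0 called and a median of 0.07. Its highest member was NPR4, of the NPR1 family of salicylic acid signalling, with 1.17 and 1.5 in replicate 1 and 1.29 and 1.05 in replicate 2 and a mean of 1.25 ± 0.11 (SD, n = 2, limma adjusted p = 0.169). Its lowest member was SGT1, a co-chaperone of disease resistance proteins, at -0.53 ± 0.081 (SD, n = 2).

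In metabolism, no list member passed the test. PAL, phenylalanine ammonia lyase, which opens the phenylpropanoid pathway, had 0.81 and 1.0 in replicate 1 and 1.55 and 1.26 in replicate 2, a mean of 1.16 ± 0.36 (SD, n = 2, limma adjusted p = 0.313), while the phenylpropanoid and lignin list of 8 features had a median of -0.06 with 3 above 0 and 2 at or above 1.8-fold. PDC1, pyruvate decarboxylase of ethanolic fermentation, had a mean of 1.15 ± 0.40 (SD, n = 2) on one feature and -0.06 on another. The glycolysis and fermentation list of 17 features had a median of 0.11 with 1 at or above 1.8-fold, and enolase Eno1 and GAPC, the cytosolic glyceraldehyde-3-phosphate dehydrogenase, had 0.75 ± 0.25 and 0.70 ± 0.49 (SD, n = 2 each). Second features of Eno1 and GAPC had means of 0.55 and 0.11. Of 35 features of sucrose, starch and cell wall sugars 3 were at or above 1.8-fold, beside 6.31% of all features, with a median of 0.22. Besides OsSPS3F these were Sbe1, a starch branching enzyme gene, at 0.96 ± 0.62 and BGLU27, a beta-glucosidase gene, at 0.86 ± 0.20 (SD, n = 2 each). A second Sbe1 feature had a mean of 0.08. All 7 features of nitrogen and amino acid metabolism were above 0, with a median of 0.66, 0 called and 1 at or above 1.8-fold. It was the glutamate dehydrogenase gene GDH2 at 0.89 ± 0.0032 (SD, n = 2), followed by GLT2, a glutamate synthase gene, at 0.85 ± 0.73, for which the spots were 1.36 and 1.36 in replicate 1 and 0.01 and 0.65 in replicate 2.

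No member of the cold and dehydration list or of the reactive oxygen and redox list passed the test. The cold and dehydration list held 15 features, of which 13 were above 0, 2 were at or above 1.8-fold and 0 were called, with a median of 0.44. Over all features 6.31% were at or above 1.8-fold. PIP2-2, an aquaporin gene, had 1.10 and 0.34 in replicate 1 and 1.61 and 1.33 in replicate 2 and a mean of 1.09 ± 0.53 (SD, n = 2), against 0.09 on a second feature. LTP, a lipid transfer protein gene, had 0.99 ± 0.40 (SD, n = 2). The reactive oxygen and redox list of 20 features had a median of 0.06 with 10 above 0 and 1 at or above 1.8-fold, the peroxiredoxin gene PRXIIF at 0.98 ± 0.67 (SD, n = 2). Its lowest member was the ascorbate peroxidase gene APX2 at -0.71, with -0.68 and -0.40 in replicate 1 and 0.22 and -1.99 in replicate 2, and at -0.16 without the column of conflicting source name. The catalase gene CatB had 0.70 ± 0.39 on one feature and -0.02 ± 0.082 on another (SD, n = 2 each). The 6 photosynthesis features had a median of -0.09 and lay between -0.48 and 0.28, with 0 at or past 1.8-fold. The 8 features of chaperones and folding had a median of -0.0025 and also 0 at or past 1.8-fold.

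The cytoskeleton list held 20 features with 14 above 0, 0 called and a median of 0.36. TubA, an alpha-tubulin gene, had 1.13 ± 0.38 (SD, n = 2, limma adjusted p = 0.211) and 0.32 on a second feature. Among the actin genes, which often serve as a reference in expression work, ACT1 had 0.84 and 0.73 in replicate 1 and 1.03 and 1.36 in replicate 2 and a mean of 0.99 ± 0.29 (SD, n = 2), ACT3 had 0.78 ± 0.085, AC7 had 0.40 ± 0.25 and AC2 had -0.15 ± 0.12. The ribosome and translation list of 18 features had a median of 0.33 with RBP-208 as its only feature at or above 1.8-fold and its only call. The list of ubiquitin and proteasome symbols held 20 features between -0.52 and 0.50 with a median of 0.06. Of 17 membrane transport features 1 was at or above 1.8-fold, the sugar transporter gene SWEET1A at 1.08 ± 0.86 (SD, n = 2), whose spots were 0.62 and 0.31 in replicate 1 and 0.58 and 2.79 in replicate 2. HAK2, of a potassium transporter family, had a mean of -0.93 from 0.48 and 0.48 in replicate 1 and 1.24 and -5.91 in replicate 2, and it turned to 0.86 without the column of conflicting source name. The 5 features of the iron and sulfur symbol list had a median of 0.13 and none was at or past 1.8-fold. That list left out a ferritin (mean 0.73) and an ATP sulfurylase (mean 1.28, above 1.8-fold), named below from the study's annotations.

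**Figure D4:**
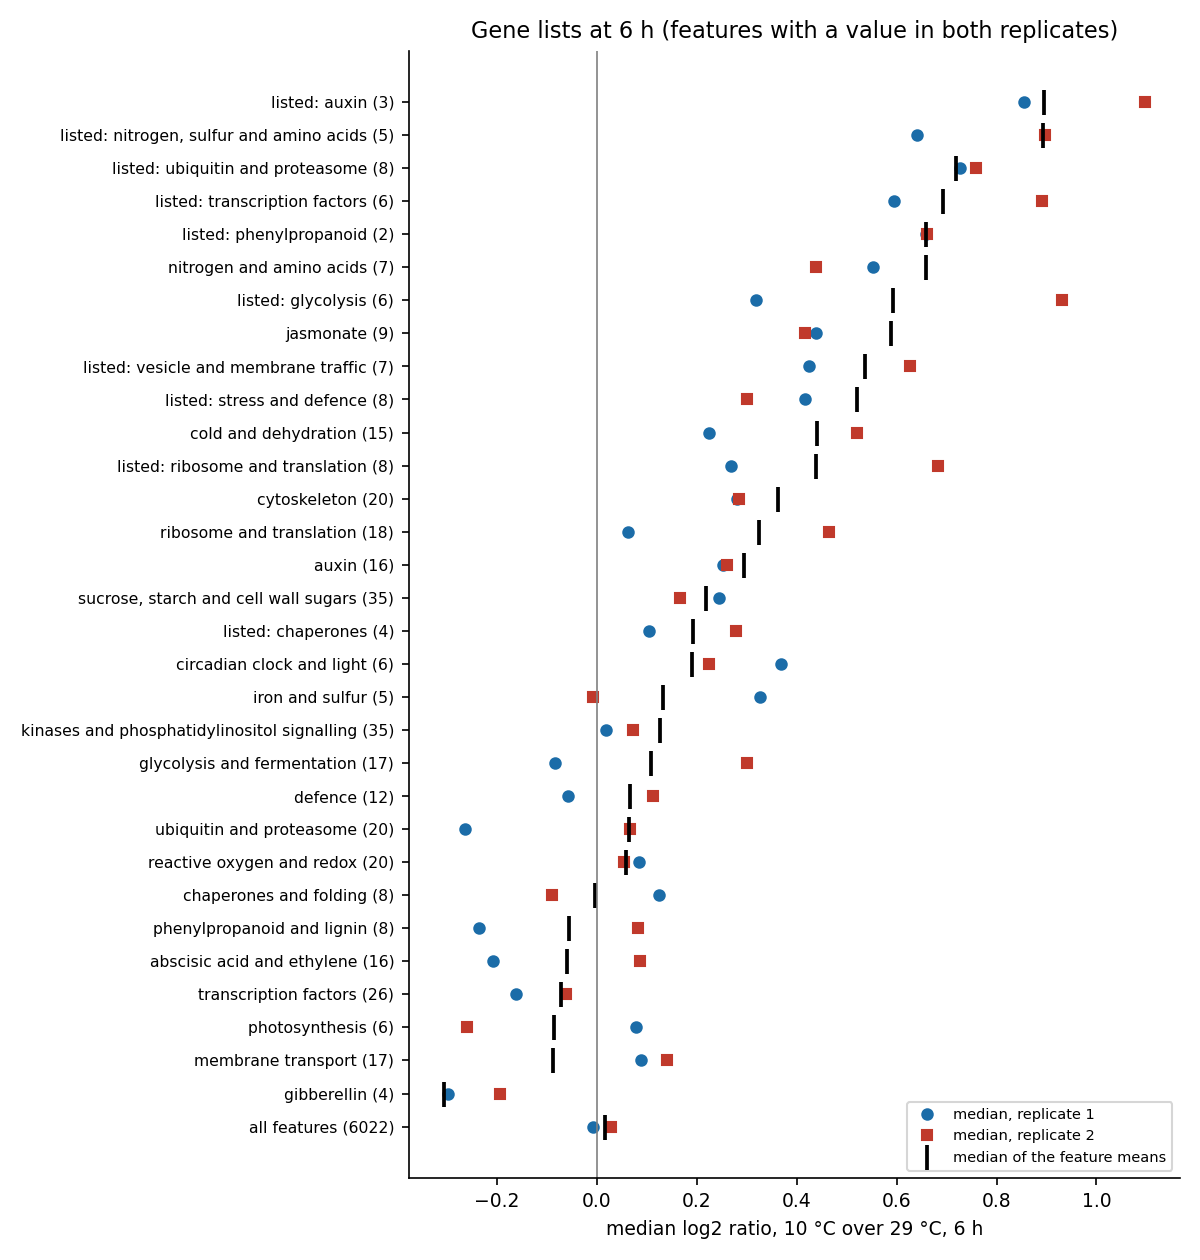
Median log2 ratio (10°C over 29°C) at 6 hours of each gene list in replicate 1 (circles), replicate 2 (squares) and over the means of the features (black bars), with the number of features in brackets and all 6022 features at the foot; lists marked listed come from annotations of genes that the study chose on these samples. The lists of symbols run from -0.31 for gibberellin to 0.66 for nitrogen and amino acids, and the bar can lie outside the 2 points because each median is taken over features separately.

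The study's own list of chilling-responsive genes was matched by EST to 99 features, and since the study chose it on these samples its direction is no independent evidence. Of these, 94 were above 0 at 6 hours, 66 were above 0 in all 4 spots and 0 were called. Over all features 51.5% were above 0, and 1441 of 6022 were above 0 in all 4 spots. The median was 0.63 and 20 were at or above 1.8-fold, a share to be set beside 6.31% of all features. Of the 99, 66 were ESTs of the CA99 and CB00 accession series described below, which held 1138 of all 6022 features. The 18 features placed in its Group-I, the rapid one, had a median of 0.78, and the 80 placed in its Group-II, the slower one, had 0.59. The highest value belonged to an ATP sulfurylase, the first enzyme of sulfate assimilation, with 0.37 and 0.48 in replicate 1 and 2.13 in the only measured spot of replicate 2 and a mean of 1.28 ± 1.21 (SD, n = 2), so it rested on replicate 2. A feature annotated as proteasome subunit alpha type-2 had 0.73 and 0.92 in replicate 1 and 1.66 and 1.72 in replicate 2 and a mean of 1.26 ± 0.61 (SD, n = 2, limma adjusted p = 0.262). A ubiquitin conjugating enzyme had 1.03 and 1.08 in replicate 1 and 0.91 and 0.91 in replicate 2 and was among the 50 features with all spots at or above 1.8-fold. All 8 listed features of ubiquitin and proteasome were above 0, with a median of 0.72, and all 8 listed features of ribosome and translation were above 0, with a median of 0.44. Ferritin, which stores iron, had 0.92 and 1.69 in replicate 1 and -0.04 and 0.34 in replicate 2 and a mean of 0.73 ± 0.82 (SD, n = 2), here with replicate 1 above replicate 2. Members of the symbol lists above that are also on the study's list include IAA3, IAA17, NPR4, PAL, LTP, GDH2, OsMyb4, PRR95, Eno1 and GAPC. For these too the direction at 6 hours is no independent evidence.

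Set against the other times in the same fit, 0 features differed between 6 hours and 0.5, 2, 12 or 24 hours at an adjusted p of 0.05 by limma. The lowest adjusted p was 0.0895 against 0.5 h, 0.856 against 2 h, 0.134 against 12 h and 0.722 against 24 h. At an unadjusted p of 0.05 features were higher at 6 hours in 101 cases and lower in 280 against 0.5 h, 46 and 246 against 2 h, 30 and 62 against 12 h, and 61 and 258 against 24 h. With replicate 2 at 2 hours as deposited, 0 features were called in these comparisons too. The called features of 6 hours had means above 0 at 0.5, 12 and 24 hours as well. At 2 hours all of them were above 0 in replicate 1. In replicate 2 of that time they were above 0 with the sign turned and below 0 as deposited. The means of NINJA1 were 1.21 at 0.5 h, 1.21 in replicate 1 at 2 h, 2.20 at 6 h, 0.76 at 12 h and 0.99 at 24 h, the highest at 6 hours. Those of gid1 were 2.27 at 0.5 h, 2.08 in replicate 1 at 2 h, 2.01 at 6 h, 0.91 at 12 h and 1.01 at 24 h, highest at 0.5 h, and those of LOC4349081 were 2.05 at 0.5 h, 2.01 in replicate 1 at 2 h, 2.37 at 6 h, 1.10 at 12 h and 0.98 at 24 h. JAZ6 had its highest mean at 6 hours with -0.06 at 0.5 h, 0.43 in replicate 1 at 2 h, 1.66 at 6 h, 1.47 at 12 h and 0.13 at 24 h, and CCA1 was higher at 12 h with a mean of 2.62. None of these differences between times passed the test.

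Ratios at 6 hours also moved with the accession series of the spotted ESTs, told by the first characters of their accessions. The 700 features of the CA99 series had a median of 0.44 (0.31 in replicate 1 and 0.59 in replicate 2) and 125 of them were at or above 1.8-fold. The 438 features of the CB00 series had a median of 0.26 with 43 at or above 1.8-fold. The 2683 features of the CA75 and CA76 series had a median of -0.07 with 77, and the 404 of the CB09 series had 0.05 with 9. Of the 12 called features 8 belonged to CA99, 2 to CB00, 1 to CB09 and 1 to none in the table. MPK16, OsSPS3F, PAL, ROS-bZIP1 and RAD23 belong to CA99, whereas JAZ6, NPR4 and EX1 belong to CA75 and CA76. Values of features next to each other in number correlated with r = 0.28, and those 380 apart with r = 0.33. Which library each series came from is not given in the sources used here. When the median of each series was set to 0 on each array, 1 feature, NINJA1, was called (mean 2.16, limma adjusted p = 0.0191), and 357 features were at or past 1.8-fold in either direction, against 428 with the ratios as deposited. Of the 31 gene list medians 27 were then lower and 4, those of auxin, gibberellin, membrane transport and iron and sulfur, were higher. The median came to 0.14 for jasmonate, 0.17 for cold and dehydration and 0.21 for nitrogen and amino acids. The sign changed for ribosome and translation (-0.03), glycolysis and fermentation (-0.14), reactive oxygen and redox (-0.09), ubiquitin and proteasome symbols (-0.03) and the listed chaperones (-0.03). The part of the library and of the place of the spots in the ratios was not tested.

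**Figure D5:**
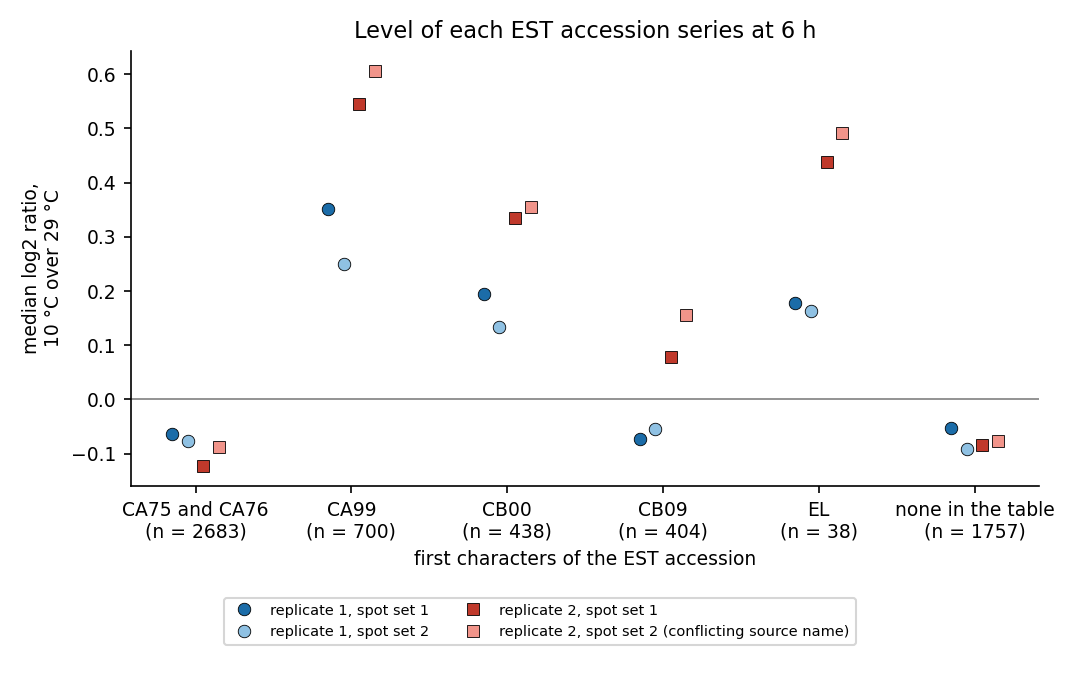
Median log2 ratio (10°C over 29°C) at 6 hours by the first characters of the EST accession, with a point for each of the 4 spot sets and the number of features below each name. The medians of CA99 lie between 0.25 and 0.61 and those of CA75 and CA76 between -0.12 and -0.06, with replicate 2 above replicate 1 in CA99 and CB00.

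Where several features measured one gene, their ratios at 6 hours often differed. There were 293 genes with 2 or more features, and the median range of their means was 0.44. In 49 of these genes at least 1 feature was at or above 1.8-fold, and in 1 of the 49 all features were. PDC1, PIP2-2, TubA, CatB and RBP-208, with the values given above, were among the genes whose features differed.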

How the data were processed

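The values were log2 ratios of a two-colour cDNA microarray, which the authors made from the medians of background-subtracted Cy3 (10°C) and Cy5 (29°C) signals of a GenePix scanner and normalized in Acuity before they were deposited. The methods set the mean ratio of an array to 1, while the mean ratios of the deposited 6 hour columns were 1.16, 1.09, 1.19 and 1.33. No intensity or background value was part of the table. The duplicate spots of each slide were averaged on the log2 scale, giving 2 replicates for each of 5 times. Features with a value in all 10 replicate means were tested with limma 3.58.1 in R 4.3.3, with a mean for each time and Benjamini-Hochberg adjustment at 0.05. Replicate 2 at 2 hours entered with its sign turned and bears on 6 hours through the spread. A separate fold rule of 1.8 follows the methods, which name no test. Of the 6080 features, 4172 were paired with 1 gene, 97 with several and 1811 with none, through the platform's annotation and RefSeq, and 99 through the study's EST annotations. On simulated data, 0, 155 and 189 of 200 features changed by 1, 2 and 3 on the log2 scale were recovered at 6 hours, with 0, 7 and 9 false calls among 5926 features. Each size was simulated once, with independent, normally distributed values around 0 for the unchanged features. The simulation held no levels of accession series and no correlation between features, so these rates need not hold for the real arrays.

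Genes were named if their feature was called, if it was among the 15 highest or 15 lowest named or annotated features with one sign in all spots, if it was a transcription factor gene that the study followed, if a synonym of its gene was that of an actin or catalase, or if it was among the largest values of a gene list. The actin and catalase genes were taken whether or not the study used them. Lists were symbol patterns, from which 63 memberships were dropped after the matches had been seen. The comparison and the lists were chosen with earlier results of these data known. Alternatives changed the spots, arrays, centring, averaging, filter and model, and 3 of them, values beyond 10 treated as missing, each accession series centred on 0 and each replicate centred for the fold counts of the other times, were added after the data had been seen.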

Additional observations from a re-analysis of the deposited data

Results flagged for a closer look

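In 7 of the 112 named features, 1 of the 4 spots at 6 hours lay far from the other three by Dixon's criterion, which chance meets in about 1 of 20 groups. In 5 of them the spot was in the column of conflicting source name. MEK1 had a spot of -5.62 (mean -1.91, and -0.69 without that column), CEBIP one of -5.49 (-1.72, and -0.42 without it), HAK2 one of -5.91 (-0.93, and 0.86 without it), SWEET1A one of 2.79 (1.08, and 0.52 without it) and a cysteine synthase one of 0.70 (0.92, and 0.99 without it). SGT1 had a spot of -0.33 in replicate 1 beside a mean of -0.53, and an oxysterol-binding protein had one of 1.65 in replicate 2 beside a mean of 0.59.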

How the results depend on the processing

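The count of 12 called features was 7 with each replicate's median set to 0, 3 and 2 with the first and the second spot set alone, 5 without the column of conflicting source name, 6 with spots averaged as linear ratios, 3 with only features measured in all 20 spot sets, 5 with every feature that had both replicates of 6 hours, 5 with the spot sets kept apart under a random block, 0 with replicate 2 at 2 hours as deposited, 283 from the 6 hour arrays alone, 3 without the 2 hour arrays, 4 without the 0.5 hour arrays, 1 with each accession series centred, 11 with a robust spread and 12 with values beyond 10 treated as missing. It lay between 0 and 25 without one replicate or the other, where the lone sample was assumed to vary like the other times. With the replicate number as a block 2 features were called. Deviations of same-numbered replicates correlated between -0.30 and 0.34 and passed 0.1 in 5 of 10 pairs of times, so the numbers were not taken to pair the samples. The 428 features past 1.8-fold in either direction became 1045 and 233 at 1.5-fold and 2-fold, 146 when each replicate had to pass, and 433 to 863 without one replicate. Against 0.5 h 1 feature was called with the first spot set alone, and without one replicate the counts ran from 0 to 3 against 0.5 h, 0 to 4 against 2 h, 1 to 2 against 12 h and 1 to 7 against 24 h. Means changed sign for bHLH (-0.021), the second feature of MT2C (-0.12), a DNAJ-like protein (-0.16), PDIL1-1 (-0.16) and a feature annotated as PAL2 (-0.29) with each series centred, for the second catalase feature CAT-B with the first spot set alone (0.048) and without the conflicting column (0.037), for HSP82 in the same way (0.17 and 0.10), and for HAK2 (0.86 in each, and 0.36 with linear averaging). Without one replicate CAT-B ran from -0.0745 to 0.042, HAK2 from -2.34 to 0.48, the second MT2C feature from -0.008 to 0.27 and the PAL2 annotation from -0.0875 to 0.41. Of 31 list medians, 0 to 6 changed sign in each setting. The causes of these changes were not tested.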
